A study of Homo sapiens with 6 samples.

Results

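The gene expression of PC-3 prostate cancer cells treated with L-gamma-glutamyl-p-nitroanilide (GPNA) was compared with that of untreated PC-3 cells. The comparison uses 4 of the 6 libraries of the series, chosen by their treatment label, and every gene that reached 5 reads on average in either of these groups, which were 18828 of 19491 listed genes. The 2 untreated libraries received no drug, and the 2 GPNA libraries came from cells kept for 48 h with 1 mM GPNA. Another pair of libraries, from cells given 10 mM benzylserine (BenSer) for 48 h, is set beside these where a value differs in direction. PC-3 is an established line from a bone metastasis, so all groups share 1 genetic background, and neither the labels nor the methods say whether the libraries of a group came from separate cultures.

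GPNA is a glutamine analogue used to block ASCT2, the exchanger encoded by SLC1A5 that brings glutamine into many tumour cells. Cells short of amino acids carry uncharged tRNAs, which activate the kinase GCN2. It phosphorylates the initiation factor eIF2 alpha, lowers general translation and favours translation of the transcription factor ATF4, whose targets make, import and recharge amino acids. Glutamine also supplies nitrogen for nucleotides and helps to keep the growth kinase complex mTORC1 active, which in turn drives ribosome production and lipid synthesis. The comparison asks which transcripts differ between cells given GPNA and untreated cells, and cannot assign a difference to this transporter.

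The values are reads scaled to a library total of 1000000 (CPM). The libraries held 23077986 to 25798967 reads, of which 51.6% to 52.7% lay on listed genes. Within each pair the libraries barely exceeded the noise of counting: divided by its degrees of freedom, the chi-square was 1.06 for the untreated pair over 15623 genes and 1.05 for the GPNA pair over 16003 genes. The same measure between an untreated and a GPNA library was 5.50 to 5.56. Each pair was therefore counted as 1 sample, so the columns used here give no replicate check and no p-value for an effect of GPNA. The table holds 4 columns per group, of which 2 matched a sample label, and the others were not used here. Intervals below are exact 95% intervals of the ratio of the summed reads on a log2 scale, and cover counting error only. As a check of the label, the epithelial markers KRT8, KRT18, KRT19, EPCAM and CDH1 each had at least 1988 reads in every library, and 12 of 22 markers examined were not listed, among them KLK3 and the leukocyte and endothelial markers PTPRC, CD3E, PECAM1 and VWF.

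Differences are given as log2(CPM + 1) with GPNA minus untreated, and the pseudocount of 1 CPM understates the change of low genes. By this measure 64 genes were at least 1.5-fold higher with GPNA (0.34% of genes tested) and 12 were at least 1.5-fold lower (0.0637%). All 64 and all 12 had both GPNA libraries on one side of both untreated libraries. A wider class, called higher or lower below, holds genes at least 1.2-fold different whose counting interval also excludes no difference. There were 862 such higher genes (4.58%) and 1017 lower genes (5.4%). Counts within the lists below are to be read against these shares. By sign alone, 8145 of the 18828 genes lay above 0 and 10683 below. Scaled with the trimmed mean of M-values (TMM), which moves the median of all genes from -0.03 to 0.00, the split was 1103 higher and 704 lower. The count of 12 lower genes depended on the libraries and the pseudocount used: it was 23 without either untreated replicate 1 or GPNA replicate 2, 27 without untreated replicate 2 and 25 without GPNA replicate 1, and with a pseudocount of 0.5 CPM the 1.5-fold counts were 155 higher and 77 lower. In these bulk libraries a transcript at a lower level per cell and fewer cells that carry it cannot be told apart.

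**Figure D1:**
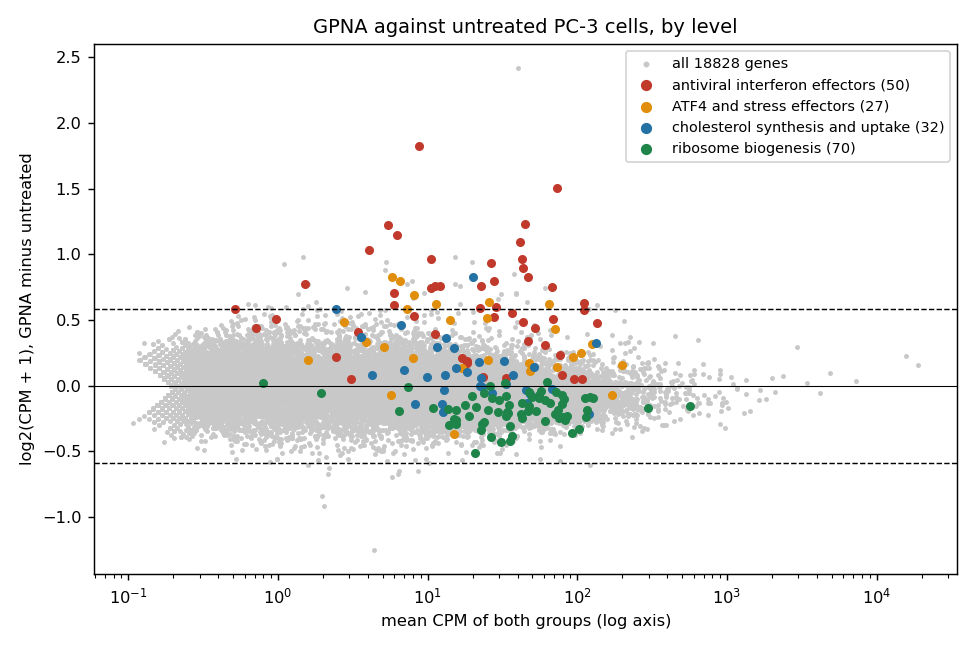
Each point is a gene, with the mean CPM of both groups on a log axis and the difference in log2(CPM + 1), GPNA minus untreated, on the other axis. Dashed lines mark 1.5-fold. The antiviral interferon effectors (red) lie above 0 in 50 of 50 cases and the ribosome biogenesis genes (green) below 0 in 66 of 70. Of all 18828 genes, 8145 lie above 0 and 10683 below.

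The largest group among the higher genes was that of interferon-stimulated genes. These encode proteins that block virus entry, replication and translation, and are switched on when interferon receptors activate the transcription factor complex ISGF3. Of the 64 genes at least 1.5-fold higher, 26 stand in one of 3 interferon lists, and 24 of them are antiviral effectors. Among 50 antiviral effectors tested, 50 lay above 0, 39 were higher and 0 lower, with a median of 0.58 against -0.03 over all genes. Their summed level was 1436 and 1425 CPM in the untreated libraries and 2098 CPM in both GPNA libraries.

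ISGF3 binds the interferon-stimulated response element, searched here as GAAANNGAA on both strands within 250 bases before each start site listed by RefSeq. This core stood before 18 of the 41 genes at least 1.5-fold higher that have a listed start (43.9%), 24 of 39 antiviral effectors (61.5%), 7.55% of the tested genes and 8.41% of all 27305 genes with a listed start. Within the list, 19 of 31 higher effectors (61.3%) and 5 of 8 others (62.5%) had it. These stretches from RefSeq (GRCh38.p14) are shown because they carry the core before 4 effectors with large differences, with the core in capitals (in IFIT1 and MX1 on the opposite strand). They lie at chr1:1013364-1013424 on the plus strand (ISG15), chr10:89392488-89392549 on the plus strand (IFIT1), chr1:27672257-27672368 on the minus strand (IFI6) and chr21:41431835-41431883 on the plus strand (MX1, at 1 of its listed starts).
ISG15: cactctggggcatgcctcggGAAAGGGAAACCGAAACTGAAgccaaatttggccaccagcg
IFIT1: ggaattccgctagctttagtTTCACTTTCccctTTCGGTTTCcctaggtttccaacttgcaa
IFI6: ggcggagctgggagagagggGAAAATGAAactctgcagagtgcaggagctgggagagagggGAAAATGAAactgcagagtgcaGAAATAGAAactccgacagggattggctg
MX1: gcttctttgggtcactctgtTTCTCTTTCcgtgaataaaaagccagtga
ISG15 and IFI6 hold 3 matches each, which overlap in ISG15, IFIT1 holds 2 and MX1 holds 1.

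MX1 and MX2, dynamin-like GTPases that trap viral nucleocapsids, led the group. MX1 had 36.9 and 38.3 CPM in the untreated libraries and 106 and 111 CPM with GPNA, a difference of 1.505 (interval 1.45 to 1.61). MX2, its neighbour on chromosome 21, had 3.53 and 3.08 CPM and then 15.04 and 13.5 CPM, a difference of 1.83, and its read ratio, which has no pseudocount, had an interval of 1.86 to 2.37. Both genes were chosen among genes whose pairs do not overlap, so that separation is not a further result.

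The oligoadenylate synthetases make a short RNA messenger in response to double-stranded RNA. OAS2 had 25.2 and 27.4 CPM untreated and 64.5 and 62.0 CPM with GPNA, a difference of 1.23. OAS1 differed by 0.80 and OAS3 by 0.58. OAS2 was chosen by the same rule. All 3 synthetases were higher.

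Among the other effectors, IFITM1, a membrane protein that hinders virus entry, had 2.80 and 2.90 CPM untreated and 7.60 and 8.41 CPM with GPNA (difference 1.23). CMPK2, a mitochondrial nucleotide kinase, differed by 1.15, IFI6, an inhibitor of virus replication at membranes, by 1.10, and RSAD2 (viperin), which makes a chain-terminating nucleotide, by 1.03. IFIT1, which binds viral RNA caps, had 31.4 and 29.1 CPM and then 56.9 and 57.4 CPM (difference 0.89). ISG15, the ubiquitin-like modifier, differed by 0.83, with its conjugating enzyme UBE2L6 at 0.60, its activating enzyme UBA7 at 0.50 and its protease USP18 at 0.61. These parts of the ISG15 cycle were higher, as were 39 of the 50 antiviral effectors tested.

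Some members moved little: TRIM22 and TRIM25 were at 0.05, IFITM2 at 0.06 and ZC3HAV1, the zinc finger antiviral protein, at 0.08. IFITM3 was at 0.24 and was not called, although its relative IFITM1 stood among the largest differences. The range within the list was therefore 0.05 to 1.83.

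Of 26 RNA sensors and interferon signalling genes, 7 were higher and 1 lower, with a median of 0.10. The cytosolic RNA sensors IFIH1 (MDA5) and DDX58 (RIG-I) differed by 0.76 and 0.66. STAT2 and IRF9, subunits of ISGF3, were at 0.37 and 0.52. IRF7, which amplifies interferon transcription, was at 0.42. The 1 lower gene was MAVS, the mitochondrial adaptor of both sensors, at -0.30, and the upstream IRF3 and TBK1 were at -0.04 and 0.10. The receptor subunits IFNAR1 and IFNAR2 were at 0.02 and 0.08. IFNB1 and the IFNL genes were not listed, so the interferons themselves have no value here.

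The class I antigen presentation genes, which load peptides for T cells, had a median of 0.17 over 20 genes, 6 of them higher and 0 lower. TAP1, a peptide transporter subunit, was at 0.43, HLA-B at 0.38, HLA-C at 0.36 and ERAP1, a peptide-trimming enzyme, at 0.31. The immunoproteasome subunits PSMB8 and PSMB9 were at 0.37 and 0.29, while the whole list of 37 proteasome subunits had a median of -0.10 with 2 higher, which are these, and 1 lower, PSMD11 at -0.33. HLA genes are close paralogs, so reads may be split between them.

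**Figure D2:**
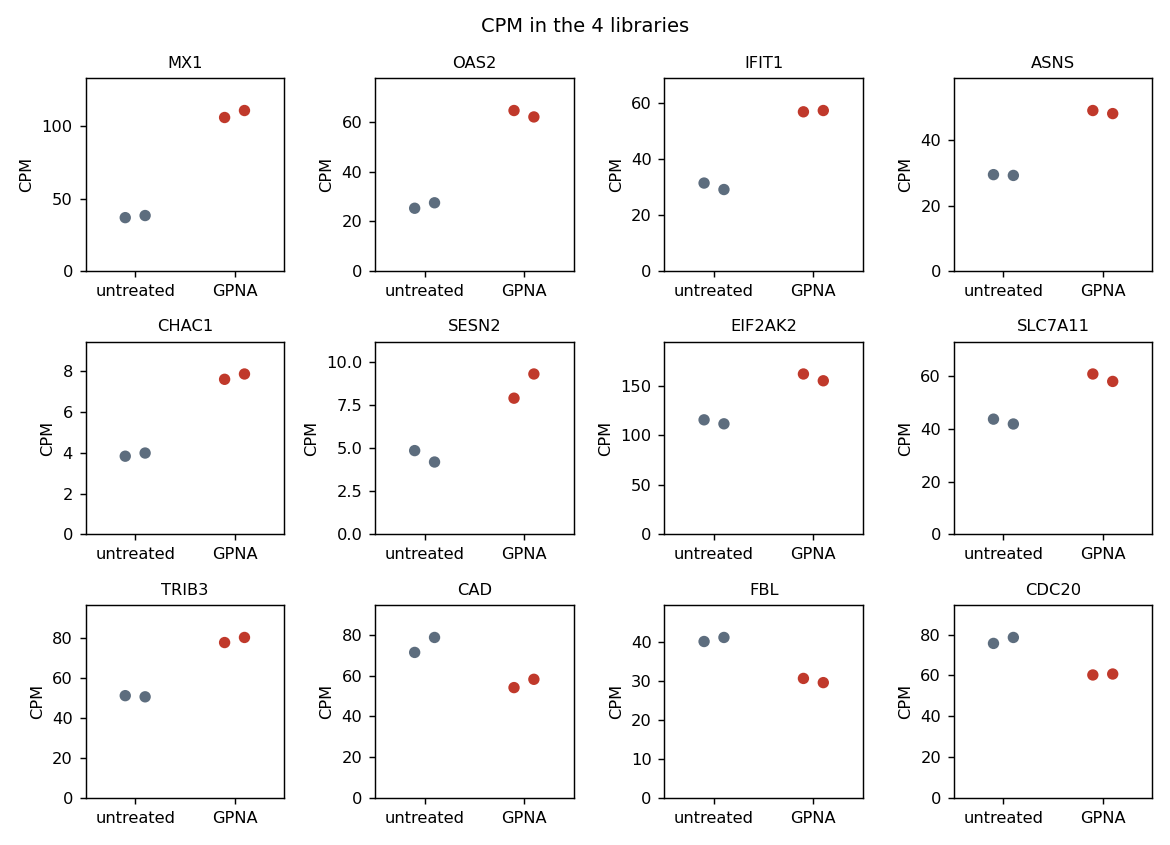
CPM of 12 genes in the 4 libraries on linear axes from 0, with 1 point per library (grey untreated, red GPNA). In each panel the pairs are apart, as they are in 844 of 862 higher and 1006 of 1017 lower genes. MX1 lies at 36.9 and 38.3 CPM untreated and at 106 and 111 CPM with GPNA. CAD lies at 71.5 and 78.8 CPM untreated and at 54.2 and 58.3 CPM with GPNA.

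ATF4 and its stress effectors formed the next group. Of 27 genes tested, 14 were higher, 1 was lower and 24 lay above 0, with a median of 0.30, and 6 were at least 1.5-fold higher. ATF4 itself had 112 CPM in both untreated libraries and 141 and 139 CPM with GPNA, a difference of 0.31 (interval 0.26 to 0.37). Its list includes genes that the study itself discusses for these samples, so the direction is not independent evidence.

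The largest member was CHAC1, which degrades glutathione, at 3.83 and 3.99 CPM untreated and 7.60 and 7.86 CPM with GPNA (difference 0.83). SESN2, a leucine sensor that holds mTORC1 inactive, followed with 4.86 and 4.20 CPM and then 7.91 and 9.31 CPM (difference 0.80). TRIB3, a pseudokinase that feeds back on ATF4, had 51.3 and 50.7 CPM and then 77.9 and 80.5 CPM (difference 0.63). In these genes the lower GPNA library stood above the higher untreated library. That held for all 64 genes at least 1.5-fold higher, so the separation is not a further result.

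The transcriptional regulators JDP2 and NUPR1 differed by 0.69 and 0.64, DDIT3 (CHOP), the transcription factor tied to cell death after stress, by 0.58, and PCK2, the mitochondrial phosphoenolpyruvate carboxykinase, by 0.62. GDF15, a stress cytokine, was at 0.50. ATF3, an immediate target of ATF4, was at 0.14 and PPP1R15A (GADD34), which guides the phosphatase of eIF2 alpha, at 0.17, neither called. The lower member was ATF5, a related bZIP factor, at -0.37.

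The CARE element bound by ATF4 was searched as TGATGNAAN. It stood before 2.60% of tested genes, 6 of 41 genes at least 1.5-fold higher (14.6%) and 4 of 23 genes of the ATF4 list (17.4%), split as 2 of 12 higher and 2 of 11 other genes. The stretches before ASNS (chr7:97872448-97872496, minus strand) and CHAC1 (chr15:40953241-40953289, plus strand), again from RefSeq GRCh38.p14, are shown as 2 of the higher genes that hold it, with the element in capitals and, in CHAC1, on the opposite strand.
ASNS: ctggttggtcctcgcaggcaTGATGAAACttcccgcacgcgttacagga
CHAC1: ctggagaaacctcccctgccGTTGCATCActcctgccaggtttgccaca

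The enzymes of amino acid synthesis did not move as 1 block. ASNS, which makes asparagine from aspartate with the amide nitrogen of glutamine, had 29.5 and 29.3 CPM untreated and 49.2 and 48.2 CPM with GPNA (difference 0.71, interval 0.63 to 0.82). Of 27 genes of glutamine, asparagine and proline metabolism, 3 were higher and 2 lower, with a median of -0.04. The lower genes were CAD, which uses glutamine in the first steps of pyrimidine synthesis, at -0.41, and PFAS, a glutamine-using purine enzyme, at -0.28. CTPS1, which makes CTP with glutamine nitrogen, was at -0.25 and was not called. The asparagine enzyme was thus higher, and CAD and PFAS were lower.

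In serine synthesis PHGDH, the first enzyme, had 57.0 and 55.5 CPM untreated and 75.2 and 76.5 CPM with GPNA (difference 0.42), and PSAT1, the next, differed by 0.35. CBS, which starts the conversion of homocysteine to cysteine, was at 0.43, and CTH, which completes it, was at -0.37. Over the 20 serine, glycine and one-carbon genes 3 were higher and 2 lower, with a median of -0.02. The second lower gene was TYMS, the thymidylate synthase, at -0.28.

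Transcripts of the amino acid transporters had a median of -0.00 over 31 genes (0.03 with TMM scaling), with 4 higher and 3 lower. SLC1A5, which encodes the target of GPNA, had 41.5 and 41.4 CPM untreated and 42.1 and 43.3 CPM with GPNA, a difference of 0.04 with an interval of -0.05 to 0.13. SLC7A5 (LAT1), the leucine importer that works in series with it, was at 0.00 (interval -0.07 to 0.08). For neither gene did the interval exclude no difference.

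The higher transporters were SLC7A11 (xCT), which trades glutamate for cystine, at 43.8 and 41.9 CPM untreated and 60.9 and 58.1 CPM with GPNA (difference 0.46), SLC3A2, the heavy chain of LAT1 and xCT, at 0.28, SLC7A8 (LAT2) at 0.64 and SLC3A1 at 0.36. SLC7A8 and SLC3A1 rest on few reads, from 1.19 and 0.173 mean CPM in untreated cells. SLC7A6 (y+LAT2), a cationic and neutral exchanger, had 16.7 and 15.99 CPM untreated and 10.3 and 11.9 CPM with GPNA (difference -0.51). SLC25A22, a mitochondrial glutamate carrier, was at -0.34, and the remaining lower gene, SLC6A14, was at -0.39 from 0.561 mean CPM. The glutamine carriers SLC38A1 and SLC38A2 were at 0.15 and -0.05.

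Of the 4 kinases that phosphorylate eIF2 alpha, EIF2AK2 (PKR), which is also an interferon-stimulated gene, had 115 and 111 CPM untreated and 162 and 155 CPM with GPNA (difference 0.48). EIF2AK3 (PERK), the kinase of the endoplasmic reticulum, was at 0.28, and EIF2AK4 (GCN2), the sensor of uncharged tRNA, was at -0.10 and was not called. The list of 9 eIF2 alpha kinase and phosphatase genes had a median of -0.00, or 0.04 with TMM scaling, with 2 higher, those named. The cytosolic tRNA synthetases had a median of 0.04 over 24 genes with 0 higher and 2 lower: VARS and FARSA were both at -0.29, and GARS, the largest in the other direction, was at 0.26.

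Of 37 genes of the unfolded protein response, which restores folding in the endoplasmic reticulum, 3 were higher and 0 lower, with a median of 0.06. DNAJB9, a lumenal co-chaperone, had 5.17 and 5.85 CPM untreated and 10.3 and 10.2 CPM with GPNA (difference 0.79). HERPUD1, a degradation factor, was at 0.40, ERN1, the sensor IRE1, at 0.28, and HSPA5 (BiP), the main lumenal chaperone, at 0.22 and not called. Of 36 mTORC1 sensors and brakes 2 were higher, SESN2 and DDIT4, an inhibitor induced by stress, at 0.33, and 1 was lower, DEPDC5, a subunit of the GATOR1 brake, at -0.34 (median -0.05). Among 36 autophagy genes, WIPI1, which binds the growing autophagosome, was at 0.58 and was the only one called (median 0.04).

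The sterol genes were another group with higher members. They are controlled by SREBP transcription factors, which INSIG1 and INSIG2 hold back when sterols are plentiful. Of 32 genes of cholesterol synthesis and uptake 8 were higher and 0 lower, with a median of 0.08 (0.11 with TMM scaling). INSIG1, itself an SREBP target, had 14.4 and 14.2 CPM untreated and 25.0 and 27.3 CPM with GPNA, a difference of 0.83 (interval 0.74 to 1.01). Its pairs did not overlap, as in all 64 genes at least 1.5-fold higher, so that separation is not a further result. The SRE element bound by SREBP was searched as TCACNNCAC on both strands before each listed start. It stood before 1 of 24 sterol genes (4.17%) and 3.61% of tested genes. Within the sterol list 0 of 5 higher and 1 of 19 other genes had it.

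STARD4, a sterol carrier, differed by 0.46, MSMO1, a demethylating enzyme of the pathway, by 0.37, and ABCG1, a cholesterol exporter controlled by LXR, by 0.37. IDI1 and MVD, enzymes of the mevalonate pathway, were both at 0.29. HMGCS1, an early enzyme of that pathway, was at -0.00 and was not called. Among the higher members named here are thus INSIG1, 2 sterol transport genes and 3 synthesis enzymes. SCD, the desaturase that makes oleate, had 95.8 and 96.6 CPM untreated and 148 and 141 CPM with GPNA (difference 0.58). Of 24 fatty acid genes 2 were higher, SCD and ACSS2, which activates acetate, at 0.41, and 1 lower, DGAT1, a triglyceride enzyme, at -0.30 (median 0.02).

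BenSer, another amino acid derivative used against ASCT2, was given at 10 mM against 1 mM GPNA, so these values are set side by side without a test, and both comparisons share the untreated libraries. With BenSer, INSIG1 differed from untreated by -0.72, STARD4 by -0.73, MSMO1 by -0.32 and SCD by -0.41. Not all lipid genes reversed: ABCG1 and ACSS2, also higher with GPNA, were at 0.58 and 0.38 with BenSer. The median of the sterol list was -0.31 with BenSer and 0.08 with GPNA. For the interferon and ATF4 lists both medians were above 0, at 1.10 and 0.51 with BenSer and 0.58 and 0.30 with GPNA.

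**Figure D3:**
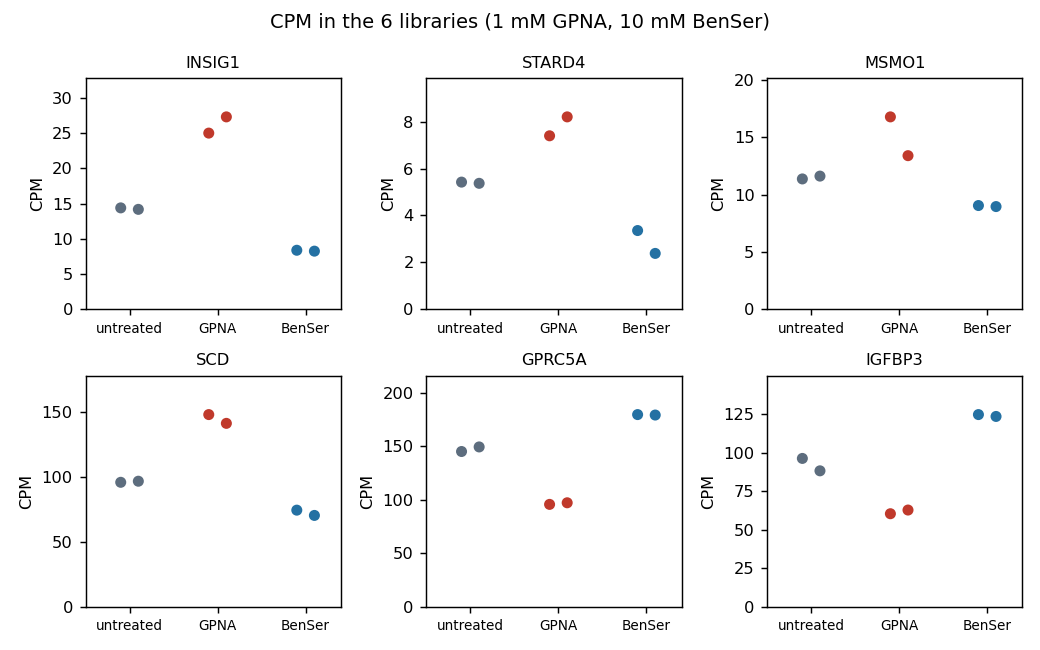
CPM of 6 genes in all 6 libraries on linear axes from 0, with 1 point per library (grey untreated, red 1 mM GPNA, blue 10 mM BenSer). For INSIG1, STARD4, MSMO1 and SCD the GPNA libraries lie above and the BenSer libraries below the untreated ones, and for GPRC5A and IGFBP3 the order is turned round.

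Of the 1017 lower genes 102 were in any of the lists, and of the 12 at least 1.5-fold lower 1 was, ANKRD1 of the AP-1 list. Ribosome biogenesis, the making of ribosomal RNA and its assembly with protein, had the lowest median of the 46 lists, -0.18 over 70 genes. Of these 16 were lower (22.9%), 0 higher and 66 below 0, where 10683 of all 18828 genes tested lay. FBL (fibrillarin), which methylates ribosomal RNA, had 40.1 and 41.1 CPM untreated and 30.6 and 29.5 CPM with GPNA (difference -0.42, interval -0.53 to -0.33). LTV1, an assembly factor of the small subunit, was at -0.51, NOL6 at -0.43, RRP12 at -0.39, MYBBP1A at -0.38 and TCOF1 (treacle), a factor for RNA polymerase I, at -0.36. The 82 cytosolic ribosomal proteins differed from this: their median was -0.01, or 0.03 with TMM scaling, and 0 were called in either direction.

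Genes of splicing had a median of -0.15 over 70 SR proteins, hnRNPs and spliceosome genes. Of these 6 were lower (8.57%, against 5.4% over all genes tested) and 0 higher. SNRPA of the U1 particle had 32.3 and 33.6 CPM untreated and 26.1 and 26.7 CPM with GPNA (difference -0.31). Both GPNA libraries lay below both untreated ones, as in 1006 of the 1017 lower genes. Other lower genes included HNRNPM at -0.30, SF1, which binds the branch point, at -0.28, SRSF2 at -0.27 and HNRNPA2B1 at -0.27. Among 44 translation initiation factors 5 were lower (11.4%) and 0 higher, with a median of -0.08 and a median untreated level of 75.0 CPM. Genes tested at 20 to 100 CPM untreated had a median of -0.06, and 4.94% of them were lower. EIF5B, which joins the subunits, was at -0.46 and EIF4G1, the scaffold of the cap complex, at -0.30. EIF5A and EIF3J were at -0.27 and EIF2B4, a subunit of the exchange factor for eIF2, at -0.27. EIF3B was at -0.21 and was not called.

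Genes of DNA replication had a median of -0.15 over 48, with 45 below 0, 7 lower and 0 higher. With TMM scaling the medians of lower lists were nearer 0. They were -0.15 for ribosome biogenesis, -0.11 for splicing, -0.11 for replication, -0.09 for mitotic genes and -0.04 for initiation factors, against 0.00 over all genes. GINS3 of the replicative helicase was at -0.36, CHAF1A, a chaperone that places histones behind the fork, at -0.36, ORC1, which marks origins, at -0.33, POLA2 of the primase complex at -0.32, GINS4 at -0.29 and FEN1, which trims flaps, at -0.28. The nucleotide enzymes had like medians, -0.15 over 20 pyrimidine genes with 6 lower and -0.16 over 17 purine genes with 1 lower. RRM2, the ribonucleotide reductase subunit, had 162 and 164 CPM untreated and 129 and 135 CPM with GPNA (difference -0.31), and TK1 was at -0.31, NME1 at -0.28 and DTYMK at -0.27. No member of these 3 lists was higher.

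In the list of cyclins, kinases and E2F, 5 of 37 were lower and 1 was higher (median -0.11). CDC25A, the phosphatase that starts S phase, had 25.0 and 27.7 CPM untreated and 20.5 and 18.7 CPM with GPNA (difference -0.41). FOXM1, a driver of mitotic transcription, was at -0.36, CDK6 at -0.34, and MYBL2 and CCNF both at -0.31. The higher member was CDKN1A (p21), an inhibitor of these kinases, at 8.18 and 8.45 CPM untreated and 13.5 and 11.7 CPM with GPNA (difference 0.55). CDK1 was at -0.10, E2F1 at -0.24 and E2F2 at -0.11, none of them called.

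Among 55 mitotic genes 6 were lower and 0 higher, and 47 lay below 0 (median -0.12). CDC20, which activates the anaphase complex, had 75.6 and 78.6 CPM untreated and 60.2 and 60.7 CPM with GPNA (difference -0.35, interval -0.42 to -0.28). CDCA8 of the chromosomal passenger complex was at -0.32, PLK1 at -0.31, CENPM at -0.30, AURKA at -0.28 and the proliferation antigen MKI67 at -0.27. UBE2C, the ubiquitin-conjugating enzyme that works with CDC20, was at -0.06 with an interval of -0.13 to 0.01. Of 36 recombination and Fanconi genes 4 were lower and 0 higher (median -0.10), among them FANCE at -0.26 and FANCA at -0.26.

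E2F factors switch on many of these genes, and their sites were searched as TTTCCCGC, TTTGGCGC, TTTCGCGC or TTTGCCGC on both strands. Such a site stood before 3.40% of all genes and 5.28% of tested genes, 14 of 42 replication genes (33.3%) and 7 of 30 genes of the cyclin list (23.3%). Among all 598 lower genes with a listed start, 33 had a site (5.52%), close to the share of the tested genes, and in the replication list 1 of 5 lower and 13 of 37 other genes had one. The stretches before CDC25A (chr3:48188434-48188481, minus strand) and POLA2 (chr11:65261889-65261936, plus strand), from RefSeq GRCh38.p14, are shown as lower genes that hold a site, given in capitals.
CDC25A: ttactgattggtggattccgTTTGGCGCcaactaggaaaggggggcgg
POLA2: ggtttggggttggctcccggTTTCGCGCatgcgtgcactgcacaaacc

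**Figure D4:**
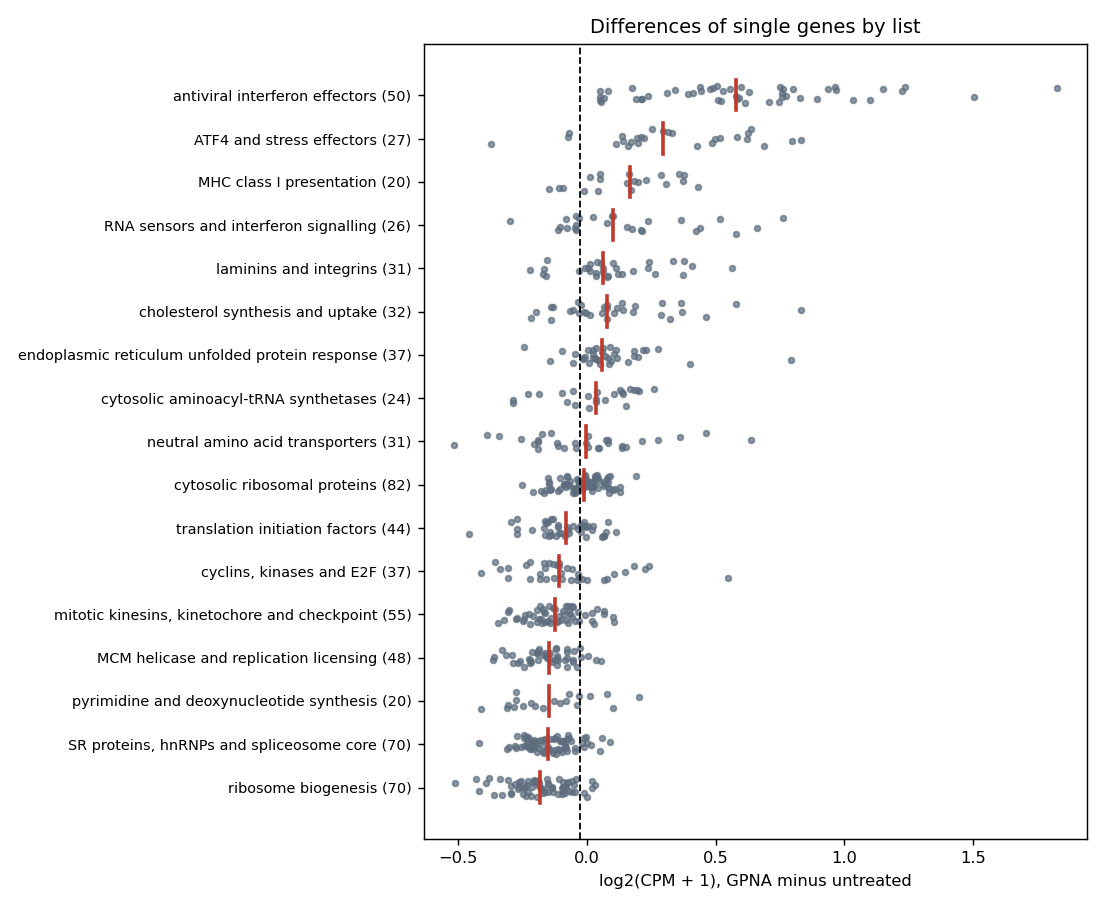
Each grey point is the difference of 1 gene in log2(CPM + 1), GPNA minus untreated, in 17 lists with the number of genes tested in brackets; points are spread vertically only to separate them. Red bars are list medians, from 0.58 for the antiviral effectors to -0.18 for ribosome biogenesis, and the dashed line is the median of all genes at -0.03.

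Heat shock chaperones, which fold new and damaged proteins, had a median of -0.13 over 45 genes, 42 of them below 0 and 3 lower. The lower share, 6.67%, was near the 5.4% over all genes tested. HSP90AA1, the inducible HSP90, had 1079 and 1086 CPM untreated and 866 and 864 CPM with GPNA (difference -0.32), its co-chaperone CDC37 was at -0.28 and FKBP5, another partner, at -0.35. For the mitochondrion, the mitochondrial ribosomal proteins had a median of -0.09 (75 genes, 1 higher, 4 lower), the nuclear respiratory chain subunits -0.06 (88 genes, 0 higher, 2 lower), the TCA cycle and pyruvate enzymes -0.08 (35 genes, 2 higher, 2 lower) and the mitochondrial tRNA synthetases -0.06 (17 genes, none called). In that order the lower shares were 5.33%, 2.27%, 5.71% and 0%, against 5.4% over all genes tested. Genes tested had medians of -0.04 at 5 to 20 CPM and -0.06 at 20 to 100 CPM untreated. Of 13 mitochondrially encoded subunits 2 were lower (15.4%, median -0.10). They were MT-CYB of complex III, at 301 and 310.1 CPM untreated and 239 and 239.7 CPM with GPNA (difference -0.35), and MT-ATP8 at -0.32.

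At the cell surface, 6 of 31 laminin and integrin genes, which tie epithelium to its basement membrane, were higher and 0 lower (median 0.06). ITGB4 had 194 and 196 CPM untreated and 248 and 258 CPM with GPNA (difference 0.37), and LAMA3, a chain of laminin-332, had 389.9 and 393 CPM and then 511 and 507 CPM (difference 0.38). ITGB6 was at 0.56, COL7A1 at 0.41, COL17A1 at 0.34 and ITGA1 at 0.26. ITGB4, LAMA3, COL17A1 and COL7A1 belong to the hemidesmosome and its anchors. In the list of syndecans and adhesion proteins CEACAM6 and CEACAM1 were at 0.51 and 0.46, SDC2 and MCAM at -0.39 and -0.38 (26 genes, 2 higher, 2 lower). Of 15 keratins 3 were lower, KRT4 at -0.52, KRT80 at -0.37 and KRT81 at -0.29, and 0 were higher (median -0.15).

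Inflammatory genes had a median of -0.08 over 34, with 5 lower and 0 higher. The neutrophil chemokine CXCL6 had 8.40 and 8.41 CPM untreated and 5.74 and 5.38 CPM with GPNA (difference -0.52), its relative CXCL5 was at -0.47 and TNFAIP3 (A20), the brake on NF-kB, at -0.31. In the AP-1 and immediate early list 1 of 34 was higher, the phosphatase DUSP6 at 0.27, and 3 were lower, ANKRD1 at -0.68, NR4A1 at -0.42 and IER3 at -0.32. Among the NRF2 targets, which defend against oxidants, 5 of 32 were higher and 1 lower (median -0.05): FTH1, ferritin heavy chain, had 279 and 289.8 CPM untreated and 355 and 358 CPM with GPNA (difference 0.32), HMOX1 was at 0.38 and ABCC1 at -0.32.

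The remaining lists had medians near that of all genes. They were glycolysis and hypoxia genes (-0.03, with NDRG1 higher at 0.35), lysosomal genes (-0.00, 4 of 43 higher, among them MANBA at 0.33), V-ATPase subunits (-0.02), metallothioneins and metal transport (0.05, none called), the BCL2 family and death receptors (0.02, 3 of 30 higher and 2 lower), replication-dependent histones (-0.05, 1 of 51 higher and 3 lower), elongation factors and other TOP mRNAs (-0.06, with EEF1A2 lower at -0.27) and the MYC, MXD and MondoA network (-0.03). Its called member was ARRDC3, an arrestin, at 28.2 and 30.9 CPM untreated and 49.4 and 47.5 CPM with GPNA (difference 0.70). Of 25 abundant noncoding RNAs (median 0.02) 2 were higher, the nuclear RNAs NEAT1, the scaffold of paraspeckles, at 0.49, and MALAT1, at 2633 and 2621 CPM untreated and 3227 and 3222 CPM with GPNA (0.30). SNHG7 was lower at -0.32. RN7SK was at 0.22.

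Outside the interferon and stress lists, the largest difference of all was the pseudogene CTD-2328D6.1 on chromosome X (GRCh37, chrX:108297361-108297792), at 13.002 and 11.1 CPM untreated and 65.8 and 71.5 CPM with GPNA (difference 2.42). Pseudogenes share reads with their parent copies, so the value is uncertain as a measure of this locus. CEACAM5, a cell surface glycoprotein used as a tumour marker, had 9.69 and 10.1 CPM and then 20.7 and 20.2 CPM (difference 0.98). FABP4, a fatty acid carrier, had 3.49 and 3.12 CPM and then 7.67 and 6.84 CPM (difference 0.94), against -0.04 with BenSer. DDX60, an antiviral helicase that stands in no list here, was at 0.94.

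Of the lower genes by the same rule, CDR1 had 7.19 and 6.07 CPM untreated and 2.05 and 2.36 CPM with GPNA (difference -1.25). It lies opposite the circular RNA CDR1-AS, and the strand setting of the counting is not given in the sources used here, so reads of both cannot be told apart. GPRC5A, a retinoic acid-induced receptor, had 145 and 149 CPM and then 95.8 and 97.3 CPM (difference -0.61), and IGFBP3, which binds insulin-like growth factors, had 96.3 and 88.2 CPM and then 60.4 and 62.8 CPM (difference -0.58). With BenSer these were 0.28 and 0.42.

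Among the other leading lower genes, the growth factor TGFB2 had 69.1 and 66.4 CPM untreated and 47.1 and 44.2 CPM with GPNA (difference -0.56), the guidance factor SLIT2 46.7 and 46.1 CPM and then 33.1 and 30.8 CPM (-0.52), and the ligand WNT9A was at -0.57. The homeobox gene HOXC6 was at -0.57, the long noncoding RNA UCA1 at -0.65, the FGF and WNT inhibitor SHISA2 at -0.59 and RASL11A, a small GTPase linked to ribosomal DNA transcription, at -0.56. USB1, which trims U6 RNA, was at -0.65, TMEM201, an inner nuclear membrane protein, at -0.69 and WDR4, a subunit of a tRNA methyltransferase, at -0.56. These genes were chosen among genes whose 2 GPNA libraries lay below both untreated libraries, so that separation is not a further result.

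The lower genes were also richer in GC. Among 9510 protein-coding genes at 5 CPM or more, split into 3 classes of 3170 by the GC content of the longest annotated transcript, 2.18%, 4.67% and 10.7% were lower from the lowest to the highest class, and 3.34%, 3.03% and 2.21% were higher. The median difference was -0.02, -0.05 and -0.10, and with TMM scaling 0.02, -0.01 and -0.06. The same split by transcript length gave medians of -0.06, -0.06 and -0.04. Over all genes tested the median also fell with the untreated level. It was 0.02 below 1 CPM, -0.01 at 1 to 5, -0.04 at 5 to 20, -0.06 at 20 to 100 and -0.07 from 100 CPM. Over all genes the median GC content was 47.5%. In the order of their medians, from the lowest, it was 46.7% for ribosome biogenesis, 46.6% for purine synthesis, 43.3% for splicing, 56.8% for keratins, 47.8% for pyrimidine synthesis, 45.0% for replication, 45.2% for heat shock chaperones and 43.1% for mitosis. It was 44.5% for the antiviral effectors and 54.7% for the ATF4 list. The part of GC content in single genes was not tested.

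**Figure D5:**
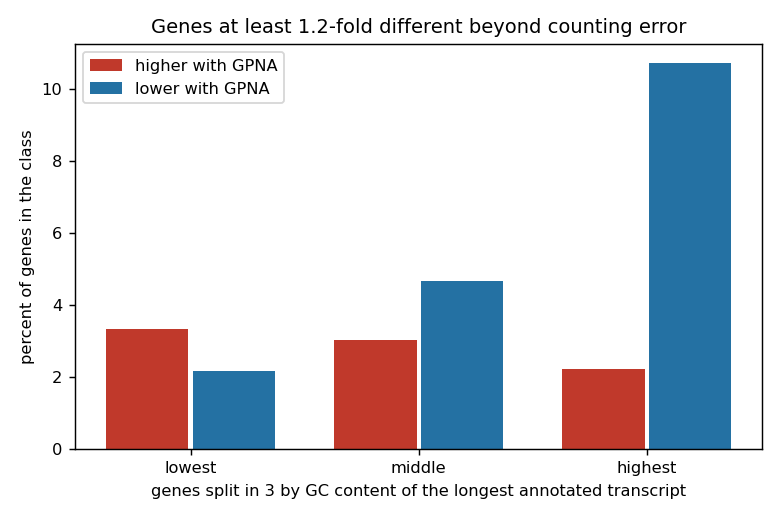
Bars give the percent of protein-coding genes that were higher (red) or lower (blue) with GPNA in 3 classes of 3170 genes by GC content of the longest annotated transcript. The lower share goes from 2.18% to 10.7% and the higher share from 3.34% to 2.21%.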

How the data were processed

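Total RNA was sequenced with a stranded paired-end kit. Per the labels and the study's methods, the authors mapped the reads to hg19 (GRCh37.p13) with TopHat2 and counted them per gene with HTSeq (0.6.2p2), and the submitters' processing notes also name Bowtie2 and DESeq. The deposited value columns are named as counts but hold CPM, which the authors made by dividing by the library total. Every value (100%, tolerance 0.01 reads) was a whole number of reads, so reads were recovered. The tables hold 16 value columns, 4 per group in each, of which 8 matched a sample label and 8 were not used; the study's methods speak of 4 replicates, and the labels name 2 libraries per group. The authors' deposited fold changes and p-values were not used.

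Columns 1 and 2 of a group were counted as 1 sample after a chi-square test of their reads (genes with 20 reads or more in the pair). The mean CPM of both was compared as log2(CPM + 1) for genes that averaged 5 reads or more in either group. Intervals are exact Clopper-Pearson intervals at 95% on summed reads, and floors and intervals cover counting error only. Named genes were the 15 largest differences per direction among called genes at 5 CPM or more with the pairs apart, up to 6 genes per list with at least 100 reads, and genes the study discusses. Further list members, such as OAS1, IFITM3, MAVS and ATF5, were chosen after their values were seen. Results for some genes are not reported here. The 46 gene lists, like the comparison itself, were chosen with earlier results of these data known. The fits across libraries used limma (3.58.1), edgeR (4.0.16) and DESeq2 (1.42.0) in R 4.3.3 with Benjamini-Hochberg adjustment at 0.05, were checked on simulated data and compare libraries, not treatments. Promoter sequences are from RefSeq (GRCh38.p14), GC content and gene models from GENCODE lifted to GRCh37, which matched 18297 of 18828 genes. Alternatives were other pseudocounts, read filters and scalings, and leaving out single libraries. Other steps used Python 3.11.15 with scipy 1.17.1, pandas 2.3.3, numpy 2.4.6 and matplotlib 3.10.9.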

Additional observations from a re-analysis of the deposited data

Results flagged for a closer look

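For 6 of the named genes reported here the libraries of GPNA and of BenSer lay on opposite sides of the untreated libraries, with both pairs at least 1.2-fold away and beyond counting error. In log2(CPM + 1) against untreated, INSIG1 was at 0.83 with GPNA and -0.72 with BenSer and STARD4 at 0.46 and -0.73. MSMO1 was at 0.37 with GPNA and -0.32 with BenSer and SCD at 0.58 and -0.41. In the other order, GPRC5A was at -0.61 with GPNA and 0.28 with BenSer and IGFBP3 at -0.58 and 0.42. The difference between the compounds was not tested, since each group counts as 1 sample, the doses were 1 mM and 10 mM, and the untreated libraries are shared.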

How the results depend on the processing

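The 4 counts of genes were recomputed under 10 alternatives and 2 more chosen after the data were seen. The 1.5-fold counts (64 higher, 12 lower) became 155 and 77 with a pseudocount of 0.5 CPM and 879 and 652 with 0.1 CPM, where low genes enter. Leaving out 1 library gave 74 to 90 higher and 23 to 27 lower genes. For genes at 5 CPM or more, a limit added after seeing the data, there were 51 higher and 7 lower, and 343 and 588 by the 1.2-fold rule (main 862 and 1017); with a pseudocount of 0.1 CPM as well, 406 were higher. A mean of at least 50 reads left 524 higher by the 1.2-fold rule. Leaving out 1 library gave 773 to 824 higher and 1040 to 1069 lower. Of 306 named genes 300 kept their sign under every alternative. The 6 exceptions, among them COL3A1, E2F2, ELOVL7, MT1X and SLC7A5, were not called. Of 46 list medians 34 kept their sign, and the other 12 lay within 0.05 of 0. With TMM scaling 19 list medians moved by more than their range over single pairs of libraries. With DESeq2 size factors 19 did. As a comparison of libraries, limma called 986 genes higher and 2377 lower, edgeR 1300 and 1553, and DESeq2 445 and 534; why they differ was not tested. With the replicate block limma called 925 and 2251, but the numbers share only a name (r = 0.0176 between same-numbered deviations over 10388 genes). With 1 sample per group, depth bounds only the counting error.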
